A study of Homo sapiens with 15 samples.

Results

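Genes of the voltage-gated calcium channels and of the pacemaker channel HCN4 were followed through cardiac differentiation of H1, a long-established line of human embryonic stem cells. The 7 genes, chosen by name, were CACNA1C, CACNA1D, CACNA1G, CACNA1H, CACNB2, CACNA2D1 and HCN4, out of 48777 genes listed in the deposited tables. No sodium channel gene is among the 7, and 12 sodium channel genes are described beside them. Total RNA was sequenced on days 0, 4, 9, 11 and 20 with 3 biological replicates per day, 15 libraries in all.

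All cells were H1, and the sample labels give plates coated with the laminins LN521+LN221 for every day, while the deposited sample table lists the first laminin alone for day 0. Day 0 cells were undifferentiated and kept in Nutristem medium. Day 4 cells had reached confluence on the laminin coating before any small molecule was added. CHIR99021, an activator of Wnt signalling, followed for a day, and IWP2, an inhibitor of Wnt secretion, was present from day 7 for 2 days, so that the cells of days 9, 11 and 20 had been through both in RPMI medium with B27. All libraries come from 1 cell line, and each is a bulk mixture of the cells in a dish. Replicates are numbered in accession order: day 9 replicates 1 and 2 came from plates 2 and 6 (replicate 3 has no plate number), day 11 replicates 1 to 3 from plates 2, 5 and 6, and day 20 replicates 1 and 2 both from plate 2 and replicate 3 from plate 6.

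A voltage-gated calcium channel is built around a pore-forming alpha-1 subunit, which senses voltage and conducts calcium. CACNA1C and CACNA1D encode the L-type pores Cav1.2 and Cav1.3, which open at strong and at more moderate depolarization, and calcium entering through Cav1.2 triggers contraction of the working heart muscle. CACNA1G and CACNA1H encode the T-type pores Cav3.1 and Cav3.2, which open near the resting potential and are typical of embryonic heart and of pacemaker tissue. CACNB2 encodes the beta subunit of cardiac L-type channels, which brings the pore to the membrane, and CACNA2D1 encodes an extracellular alpha-2/delta subunit. HCN4 carries the funny current that depolarizes sinoatrial node cells between beats.

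Library totals lay between 11990302 and 33469703 counts. Day 20 replicate 2 stood apart: it had an RNA integrity number of 6.1 and counted reads on 100% of 174 genes that were near silent on days 0 to 11 (at most 2 counts in all over those 12 libraries), at a median of 11.0 reads per kb. That level equalled between 1.54% (HCN4) and 9.28% (CACNA1D) of the reads per kb of the 7 genes in the same library. Day 20 replicate 3 counted 75.9% of the silent genes at 0.678 reads per kb, and the median was 0 in day 20 replicate 1. On days 0 to 11 a median of 0 follows from how these genes were chosen. Whether the reads on day 20 are background or genes newly expressed was not tested. In TPM, the count per gene length scaled to the same sum in every library, 1 short gene took 20.0% of day 0 replicate 3 and 17.0% of day 9 replicate 1, which lowers the TPM of every other gene there by the same share but leaves the tests on counts untouched. The 8 cardiomyocyte markers (TNNT2, ACTN2, MYH6, MYL7, MYL4, TNNI1, TTN and NKX2-5) summed to at most 18.9 TPM on days 0 and 4, to between 457 and 1683 TPM on day 9, to between 5421 and 23438 TPM on day 11 and to between 6142 and 25709 TPM on day 20. In bulk RNA, fewer cells of a type and less RNA per cell cannot be told apart.

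The genes lie on separate chromosomes of GRCh38, in GENCODE v44. CACNA1C spans positions 1970772 to 2697950 of chromosome 12, CACNA1D positions 53328963 to 53813733 of chromosome 3, CACNA1G positions 50560715 to 50627474 of chromosome 17 and CACNA1H positions 1153106 to 1221771 of chromosome 16. CACNB2 spans positions 18140424 to 18543557 of chromosome 10, CACNA2D1 positions 81946444 to 82443956 of chromosome 7 and HCN4 positions 73319859 to 73368958 of chromosome 15, the last pair on the minus strand and the others on the plus strand. Exons of CACNA2D1 and HCN4 overlap no other annotated gene. Exons of the other 5 overlap genes on the opposite strand over 223 bases (CACNA1H) to 1399 bases (CACNA1D, with CHDH), and since the sources used here do not say whether reads were counted by strand, reads there may belong to either gene.

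RefSeq promoter windows were found for 5 of the 7 genes and not for CACNA1G and CACNA1H. The 250 bases before the start are shown for CACNA1C and CACNA1D, the L-type pores that both rose up to day 11, for HCN4, and for CACNA2D1, which fell early. Capitals mark the GC box (GGGCGG on either strand, where matches can overlap), each window is written 5′ to 3′ on the strand of its gene, and coordinates are those of GRCh38.
CACNA1C, chr12:2052737-2052986, plus strand: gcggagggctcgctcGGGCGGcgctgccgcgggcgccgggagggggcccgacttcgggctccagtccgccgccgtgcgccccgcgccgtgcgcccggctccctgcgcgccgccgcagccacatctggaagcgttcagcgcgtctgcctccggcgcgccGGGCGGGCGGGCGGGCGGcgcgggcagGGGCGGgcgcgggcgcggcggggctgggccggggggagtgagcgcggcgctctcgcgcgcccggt
CACNA1D, chr3:53494361-53494610, plus strand: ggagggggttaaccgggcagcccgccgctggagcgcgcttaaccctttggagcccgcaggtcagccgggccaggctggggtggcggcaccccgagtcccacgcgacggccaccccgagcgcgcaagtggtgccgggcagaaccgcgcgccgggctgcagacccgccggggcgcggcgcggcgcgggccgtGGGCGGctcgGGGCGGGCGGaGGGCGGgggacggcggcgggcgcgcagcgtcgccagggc
HCN4, chr15:73368959-73369208, minus strand: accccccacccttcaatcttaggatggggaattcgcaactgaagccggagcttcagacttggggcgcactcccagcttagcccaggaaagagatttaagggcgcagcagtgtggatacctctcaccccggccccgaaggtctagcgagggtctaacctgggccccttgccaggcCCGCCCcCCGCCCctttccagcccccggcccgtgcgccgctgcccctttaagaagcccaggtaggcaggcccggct
CACNA2D1, chr7:82443957-82444206, minus strand: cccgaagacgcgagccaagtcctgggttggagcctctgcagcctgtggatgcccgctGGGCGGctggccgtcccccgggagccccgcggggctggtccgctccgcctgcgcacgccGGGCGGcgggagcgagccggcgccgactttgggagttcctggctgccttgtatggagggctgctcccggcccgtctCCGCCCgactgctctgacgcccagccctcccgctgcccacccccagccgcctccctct
The windows held 6 GC boxes in CACNA1C, 4 in CACNA1D, 2 in HCN4 and 3 in CACNA2D1, and 42.6% of all 35116 windows of this length held at least 1. Their GC content was 85.6%, 81.6%, 65.2% and 75.6%, against a median of 58.0% over all windows. None of the 4 windows held the GATA letters AGATAA (9.17% of all windows), the T-box letters AGGTGT (9.57%), the TEAD letters GGAATG (11.9%) or TATAAA (10.7%), each searched on both strands. The NKX2-5 core letters AAGTG, found in 37.6% of all windows, occurred once on either strand in CACNA1D and in none of the other windows shown. The RefSeq starts of CACNA1C and CACNA1D lie inside these genes as GENCODE draws them, so other starts of both genes are not covered.

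CACNA1C was low in stem cells and rose with differentiation. The day 0 replicates gave 1.24, 0.629 and 0.958 TPM, followed by 1.14, 1.10 and 1.30 TPM on day 4. The day 9 replicates held 1.49, 3.45 and 1.44 TPM and the day 11 replicates 7.22, 15.1 and 6.98 TPM. On day 20 the values were 27.2, 71.5 and 12.4 TPM. Every day 9 replicate was above every day 4 replicate, and every day 11 replicate above every day 9 replicate. Days 11 and 20 overlapped, through replicate 2 of day 11 and replicate 3 of day 20, and so did days 0 and 4.

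CACNA1D started at a similar level and had its highest mean on day 11. It stood at 0.622, 0.688 and 0.629 TPM on day 0 and at 0.544, 0.866 and 0.563 TPM on day 4, where a library held only 37 to 55 reads of the gene. Day 9 gave 2.17, 2.73 and 1.37 TPM, day 11 gave 24.7, 66.1 and 10.5 TPM, and day 20 gave 16.4, 30.1 and 7.10 TPM. The order of the means was day 11, day 20, day 9, day 4 and day 0, in which days 11 and 20 overlapped and days 4 and 0 overlapped.

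The T-type pores were already expressed in stem cells. CACNA1G stood at 12.7, 6.31 and 12.2 TPM on day 0 and at 13.1, 13.4 and 13.7 TPM on day 4. It then spread widely, with 9.15, 1.96 and 13.0 TPM on day 9 and 7.94, 26.4 and 2.35 TPM on day 11, an 11.2-fold range on that day, and reached 76.9, 89.3 and 20.7 TPM on day 20. Only day 20 stood apart from the next day in the order of the means, and days 4, 11, 0 and 9 overlapped with their neighbours in that order. CACNA1H had the highest TPM of the 4 pore genes in 13 of the 15 libraries. It stood at 83.1, 56.6 and 69.1 TPM on day 0, 85.8, 93.1 and 76.7 TPM on day 4, 39.8, 34.6 and 51.1 TPM on day 9 and 39.2, 44.5 and 25.8 TPM on day 11, and every replicate of days 9 and 11 was below every replicate of days 0 and 4. Day 20 gave 110.1, 39.1 and 75.9 TPM, which overlapped with each of the other days.

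CACNB2 was low until day 9, with 4.30, 3.31 and 3.11 TPM on day 0, 3.38, 3.70 and 3.99 TPM on day 4 and 5.11, 5.10 and 5.59 TPM on day 9. The day 11 replicates held 8.01, 25.0 and 4.06 TPM and the day 20 replicates 49.9, 62.7 and 18.9 TPM. Day 11 overlapped with both day 9 and day 20, while every day 20 replicate was above every replicate of days 0, 4 and 9.

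CACNA2D1 followed another course, high in stem cells and lowest in the middle of the series. It stood at 52.0, 35.6 and 37.2 TPM on day 0 and at 57.7, 62.7 and 43.5 TPM on day 4. It then stood at 10.6, 16.1 and 11.7 TPM on day 9, at 15.3, 8.72 and 16.9 TPM on day 11 and at 23.8, 46.0 and 28.4 TPM on day 20. Every replicate of days 9 and 11 was below every replicate of the other 3 days.

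HCN4 was present in stem cells and highest on day 20. It stood at 20.1, 12.7 and 16.3 TPM on day 0, at 13.6, 16.4 and 24.9 TPM on day 4 and at 11.8, 9.50 and 16.8 TPM on day 9, and these 3 days overlapped. Day 11 gave 28.6, 85.3 and 17.1 TPM and day 20 gave 118, 182 and 35.5 TPM. In TPM every day 11 replicate was above every day 9 replicate, by 17.1 against 16.8 TPM at the nearest, and this order did not hold in counts normalised over the 6 libraries of these days. Days 11 and 20 overlapped. HCN4 had the highest mean of the 7 genes on days 11 and 20, 43.7 ± 36.5 TPM and 112 ± 73.3 TPM (SD, n = 3).

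**Figure D1:**
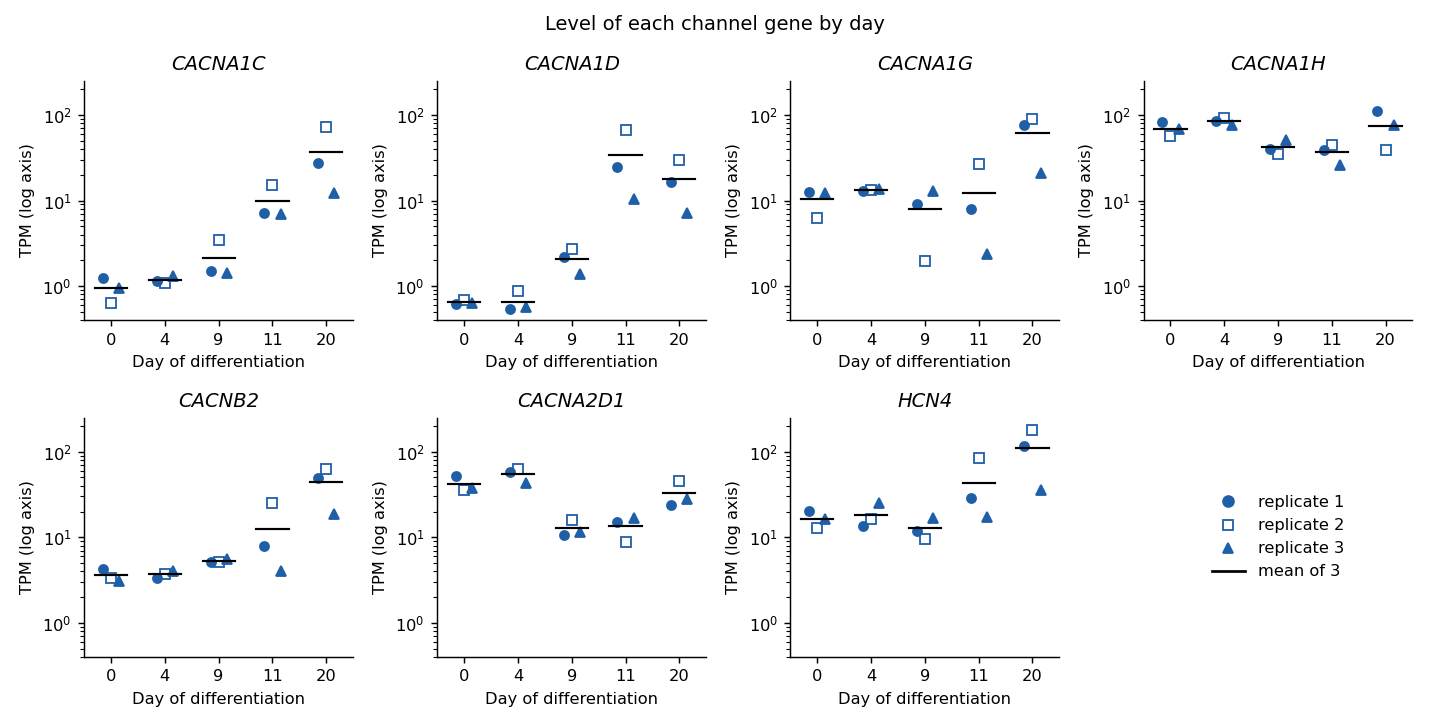
Level of each of the 7 genes in TPM (log axis) against the day of differentiation. Points are replicates 1, 2 and 3 of a day and the bar is their mean. CACNA1C and CACNA1D rise from near 1 TPM, CACNA2D1 is lowest on days 9 and 11, and the day 11 and day 20 replicates spread widely for most genes.

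The same libraries were high or low for most of the genes. On day 11, replicate 2 (plate 5) had the highest level of every gene but CACNA2D1, for which it had the lowest, and its cardiomyocyte markers summed to 23438 TPM against 7245 and 5421 TPM in replicates 1 and 3. On day 20, replicate 3 (plate 6) had the lowest level of every gene but CACNA1H and CACNA2D1, a cardiomyocyte marker sum of 6142 TPM against 24556 and 25709 TPM, and a sum of 24359 TPM over 6 mesenchymal markers against 3173 and 1198 TPM in replicates 1 and 2. Endoderm and yolk sac markers such as AFP summed to 17323, 667 and 20291 TPM in replicates 1, 2 and 3 of day 20, so they were high in replicate 1 as well. The part of these markers in the spread of the channel genes was not tested.

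Counts of neighbouring days were compared with edgeR's quasi-likelihood test, at a threshold of 0.05 on Benjamini-Hochberg adjusted p-values across the whole table. Fold changes are on the log2 scale of normalised counts, each with its standard error (SE). Neighbouring comparisons share the libraries of the day between them, so they are not independent. The labels call the replicates biological but do not say how dishes were set up, so p-values measure the spread between these libraries.

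Between day 0 and day 4, before CHIR99021, none of the 7 genes passed the threshold. Their log2 fold changes lay between −0.05 (CACNA1D) and 0.33 (CACNA2D1, SE 0.18), with adjusted p-values from 0.885 to 0.990 in edgeR. Of the 20964 genes tested, 0% were called in either direction by edgeR, 741 (3.53%) had an unadjusted p-value under 0.05, as did 0 of the 7, DESeq2 and limma also called 0 genes, and 31 genes were higher and 33 lower with no filter on low counts. In normalised counts the days overlapped for all 7, where 4.93% of all genes did not overlap and were higher and 5.08% lower. For the most abundant of the pore genes, CACNA1H, the log2 fold change was 0.22 (SE 0.18).

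From day 4 to day 9, across Wnt activation and inhibition, the calcium channel genes parted. CACNA1D rose with a log2 fold change of 1.67 (SE 0.30, adjusted p = 0.00206 in edgeR), CACNA1C rose by 0.84 (0.30, adjusted p = 0.0478) and CACNB2 by 0.54 (0.16, adjusted p = 0.0257). CACNA2D1 fell by 2.09 (0.18, adjusted p = 4.3e-05 in edgeR) and CACNA1H fell by 1.00 (0.18, adjusted p = 0.00231). The log2 fold changes of CACNA1G (−0.68, SE 0.56, adjusted p = 0.356) and HCN4 (−0.49, SE 0.29, adjusted p = 0.200) did not pass in edgeR. Thus 3 of the 7 genes were higher and 2 lower, where 24.3% and 24.7% of all 21252 genes tested were, so 5 called of 7 is not far from the share over all genes. These 5 genes were also those whose replicates did not overlap, against 30.2% of all genes higher and 29.9% lower without overlap, and those with an unadjusted p-value under 0.05, against 56.1% of all genes. The calls of CACNA1C and CACNB2 were lost under 8 and 9 of 14 alternatives, among them the fits without any 1 of the day 4 replicates or day 9 replicate 2 for CACNA1C and without day 4 replicate 1 or 2 or day 9 replicate 1 or 3 for CACNB2 (adjusted p up to 0.144 and 0.0828 in these edgeR fits), while that of CACNA1H was lost under 1 and those of CACNA1D and CACNA2D1 under none.

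The other subunit genes moved mainly downward over the same days, where 24.3% of all genes tested were called higher and 24.7% lower. All 6 other pore genes fell, among them the neuronal R-type pore CACNA1E (log2 fold change −4.45, SE 0.33), the N-type pore CACNA1B (−3.16, 0.15), the skeletal muscle pore CACNA1S (−2.36, 0.41) and the P/Q-type pore CACNA1A (−1.44, 0.19), with a median of −1.90 against 0.013 over all genes. Of the 14 other auxiliary subunit genes, 12 were tested, 4 rose and 5 fell. The gamma subunit genes CACNG5 (−3.92, 0.64) and CACNG8 (−2.28, 0.22) and the beta subunit gene CACNB4 (−2.89, 0.33) fell, and CACNG1 (3.03, 0.47), the gamma subunit of skeletal muscle, rose from at most 0.256 TPM to between 1.28 and 1.88 TPM. Among the pacemaker channel family, HCN2 (−2.14, 0.20) and HCN3 (−1.54, 0.28) fell.

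Sodium channels carry the fast upstroke of the action potential. Of the 12 sodium channel genes, 7 fell from day 4 to day 9 and 1 rose, where 24.7% of all genes tested fell and 24.3% rose. The neuronal pores SCN1A (−5.02, SE 0.42, to 2 reads per library), SCN2A (−3.74, 0.45) and SCN9A (−3.45, 0.34) and the beta subunit SCN4B (−3.37, 0.34) had the largest decreases, while SCN7A, which encodes a sodium-sensing channel, rose (2.97, 0.40). Over the same days 6 of the 7 tested neuronal markers fell, out of a list of 8 (TUBB3, MAP2, STMN2, SNAP25, SYP, ELAVL3, ELAVL4 and DCX), their summed level went from between 52.0 and 78.8 TPM to between 6.84 and 13.9 TPM with none listed at 0, and all 6 pluripotent markers fell. These are marker levels in bulk RNA and do not show that neuronal cells were present. Their part in the fall of the neuronal channel genes was not tested.

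**Figure D2:**
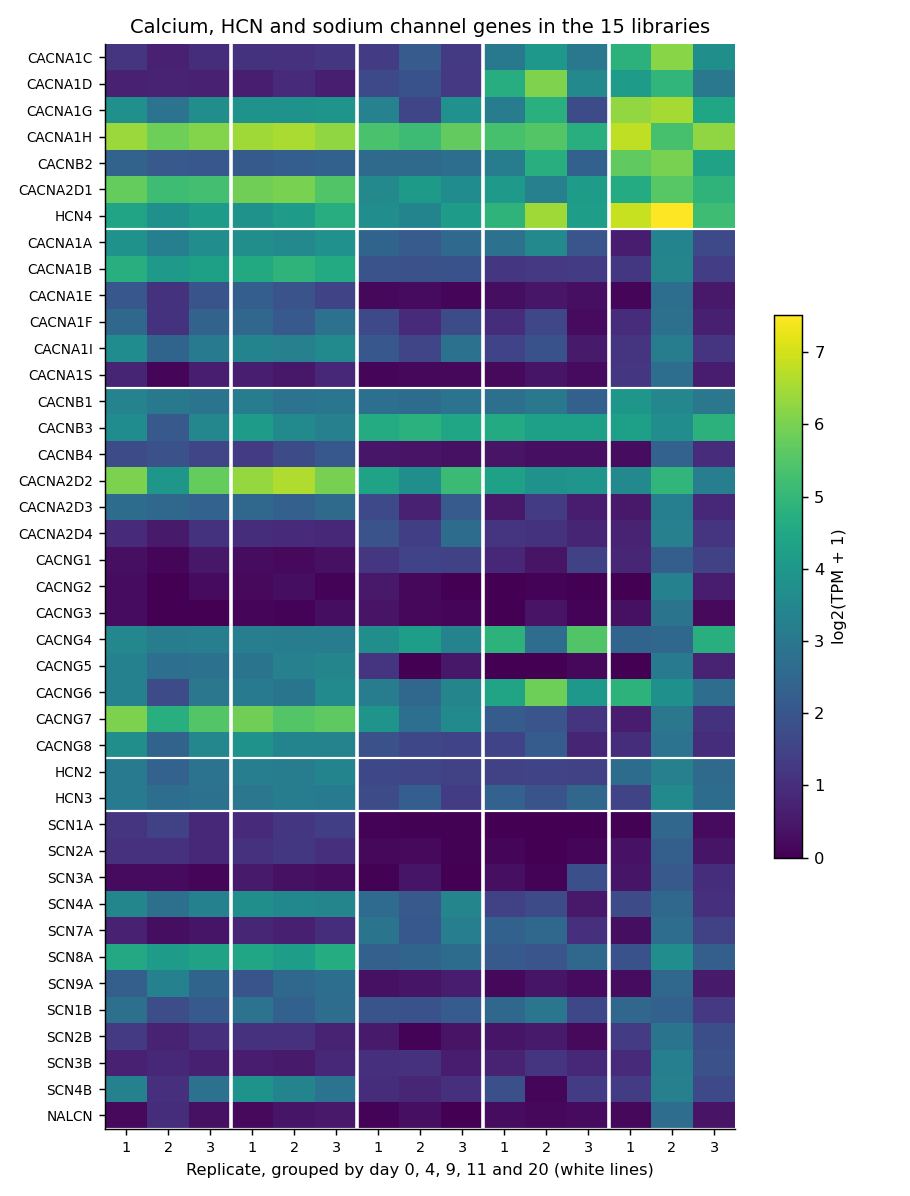
Heat map of log2(TPM + 1) for the 7 genes (top block) and the other calcium channel pore and auxiliary genes, HCN2, HCN3 and the sodium channel genes in the 15 libraries, grouped by day. The neuronal pores such as CACNA1B and SCN8A are bright on days 0 and 4 and dark on days 9 and 11, and day 20 replicate 2 is raised for nearly every gene, including those dark in the other 2 replicates of that day.

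Among proteins that regulate these channels, 3 rose and 3 fell of the 14 tested of 17 from day 4 to day 9. Over all genes tested 24.3% were called higher and 24.7% lower, so these counts are not far from that share. AHNAK, a large scaffold that binds the beta subunit, rose (log2 fold change 2.91, SE 0.17), and STAC2, which binds L-type channels, fell (−3.05, 0.26). STAC rose (1.88, 0.63), and PEX5L, a subunit that directs HCN channels to the membrane, fell (−1.73, 0.56). Of the 4 sinoatrial transcription factor genes, 3 were tested and all 3 rose. The rise was 7.72 (0.28) for TBX3, 7.00 (0.61) for ISL1 and from at most 2 to at least 34 reads per library for TBX18. TBX18 is also on the list of epicardial markers used here. SHOX2 was not tested and stood at no more than 0.441 TPM on days 4 and 9. HCN4 itself did not pass over these days. Of the 6 tested of the 7 genes of calcium release and reuptake, JPH2 (4.65, 0.24) and PLN (3.69, 1.27) rose and TRDN (−2.02, 0.46) fell.

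From day 9 to day 11 both L-type pores rose. The log2 fold change was 3.96 for CACNA1D (SE 0.67, adjusted p = 0.0340 in edgeR) and 2.16 for CACNA1C (0.42, adjusted p = 0.0488 in edgeR), and the replicates of these days did not overlap for either. These 2 of 7 genes compare with 1.39% of the 20679 genes tested that were called higher and 1.00% called lower, and with 11.7% that did not overlap and were higher and 12.4% that were lower. HCN4 had a log2 fold change of 1.70 (SE 0.57, adjusted p = 0.186 in edgeR) an unadjusted p-value under 0.05 as 17.0% of all genes had, and passed with DESeq2 (adjusted p = 0.0221), and CACNB2 had 1.15 (0.59, adjusted p = 0.384 in edgeR). CACNA1G (0.49, 0.91), CACNA1H (−0.27, 0.24) and CACNA2D1 (0.06, 0.26) had adjusted p-values from 0.638 to 0.947 in edgeR. The call of CACNA1C was lost under 10 of 15 alternatives and that of CACNA1D under 5 (adjusted p up to 0.216 and 0.179 in edgeR). Neither passed without day 9 replicate 1, day 9 replicate 3 or day 11 replicate 1, CACNA1D also not without day 9 replicate 2, and CACNA1C also not without day 11 replicate 2 or 3. Day 11 replicate 2 weighed most: without it the log2 fold change was 3.04 for CACNA1D, 0.79 for HCN4 and 0.15 for CACNB2, and the sign for CACNA1G turned (−0.73).

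Around them, none of the other pore, auxiliary, HCN or sodium channel genes passed from day 9 to day 11 in edgeR, where 2, 3, 0 and 1 of them had an unadjusted p-value under 0.05. Among the regulators 1 of the 14 tested was called higher, where 1.39% of all genes tested were. RRAD, a small GTPase that restrains L-type current, did not pass the threshold, with a log2 fold change of 5.53 (SE 1.09). It went from between 0.750 and 1.03 TPM to between 9.16 and 111 TPM. The sodium-calcium exchanger SLC8A1 was the only one of the 7 calcium release and reuptake genes past the threshold (5.63, SE 0.67, adjusted p = 0.0155 in edgeR). Over the same days 7 of the 8 cardiomyocyte markers were called higher, and the replicates of all 8 did not overlap between the days. The study picked MYH6, ACTN2, TNNT2, TNNI1, MYL4 and SLC8A1 from its bulk time course as genes that separate day 11 from day 9. Their calls here therefore repeat that choice and are not separate evidence. In the list of calcium release and reuptake genes the median log2 fold change was 2.61, against 1.15 for the 7 channel genes and 0.0045 over all genes.

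From day 11 to day 20 none of the 7 genes passed in edgeR. The log2 fold changes were 2.18 for CACNA1G (SE 0.82, adjusted p = 0.235 in edgeR), 1.67 for CACNA1C (0.54, adjusted p = 0.173), 1.66 for CACNB2 (0.65, adjusted p = 0.251), 1.15 for HCN4 (0.66, adjusted p = 0.441), 1.08 for CACNA2D1 (0.32, adjusted p = 0.139) and 0.98 for CACNA1H (0.46, adjusted p = 0.344). CACNA1D had the only negative value, −1.13 (0.65, adjusted p = 0.443 in edgeR). CACNA1C, CACNA1G, CACNB2 and CACNA2D1 had unadjusted p-values under 0.05 in edgeR, as did 16.7% of all genes, and CACNA1C passed with DESeq2 (adjusted p = 0.0373). Over all 21398 genes tested, 1.12% were called higher and 0.435% lower. CACNA2D1 was the only one of the 7 whose replicates did not overlap between these days, against 11.8% of all genes that did not overlap and were higher and 10.6% that were lower. With all 15 libraries in one fit, CACNA1C, CACNB2 and CACNA2D1 passed. Without day 11 replicate 2 the log2 fold changes were 3.36 for CACNA1G, 2.62 for CACNB2, 2.02 for HCN4 and −0.26 for CACNA1D, and without day 20 replicate 2 that of CACNA1C was 1.03, none of them past the threshold.

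The labels give plate numbers, and values are set side by side here for plates 2 and 6, without a statement in the labels that a number marks the same culture on different days. CACNA1C went from 1.49 to 7.22 and then to 27.2 and 71.5 TPM on plate 2, and from 3.45 to 6.98 and 12.4 TPM on plate 6, over days 9, 11 and 20. CACNA1D went from 2.17 to 24.7 and then to 16.4 and 30.1 TPM on plate 2, and from 2.73 to 10.5 and 7.10 TPM on plate 6. Both rose from day 9 to day 11 on either plate, and from day 11 to day 20 the direction of CACNA1D differed between the plate 2 libraries. HCN4 went from 11.8 to 28.6 and then to 118 and 182 TPM on plate 2, and from 9.50 to 17.1 and 35.5 TPM on plate 6, higher at each step. CACNA1G, CACNB2 and CACNA2D1 were also higher on day 20 than on day 11 on either plate, and CACNA1H was not, at 39.2 TPM on day 11 and 39.1 TPM in day 20 replicate 2.

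Over the whole course, from day 0 to day 20, CACNA1C rose by a log2 fold change of 4.92 (SE 0.59, adjusted p = 0.00115 in edgeR) and CACNA1D by 4.43 (0.47, adjusted p = 0.000762). CACNB2 rose by 3.31 (0.40, adjusted p = 0.00122 in edgeR), HCN4 by 2.43 (0.49, adjusted p = 0.00858) and CACNA1G by 2.25 (0.52, adjusted p = 0.0152). The levels of CACNA1H and CACNA2D1 did not pass, with −0.08 (0.46, adjusted p = 0.920 in edgeR) and −0.64 (0.26, adjusted p = 0.106). Thus 5 of the 7 genes were higher, where 16.1% of the 21988 genes tested were called higher and 11.3% lower. Without day 20 replicate 2, the library with reads on silent genes, the same 5 passed, CACNA1C with a log2 fold change of 4.28, and CACNA2D1 was also called lower (adjusted p = 0.0332 in edgeR). CACNA1G did not pass without day 0 replicate 1 or 2 (adjusted p up to 0.0794), and HCN4 did not without day 0 replicate 2 (adjusted p = 0.0599). In normalised counts every day 20 replicate of CACNA2D1 was below every day 0 replicate, as for 22.5% of all genes, while in TPM the days overlapped. The 5 called genes did not overlap either, as for 24.2% of all genes, and 39.8% of all genes had an unadjusted p-value under 0.05.

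**Figure D3:**
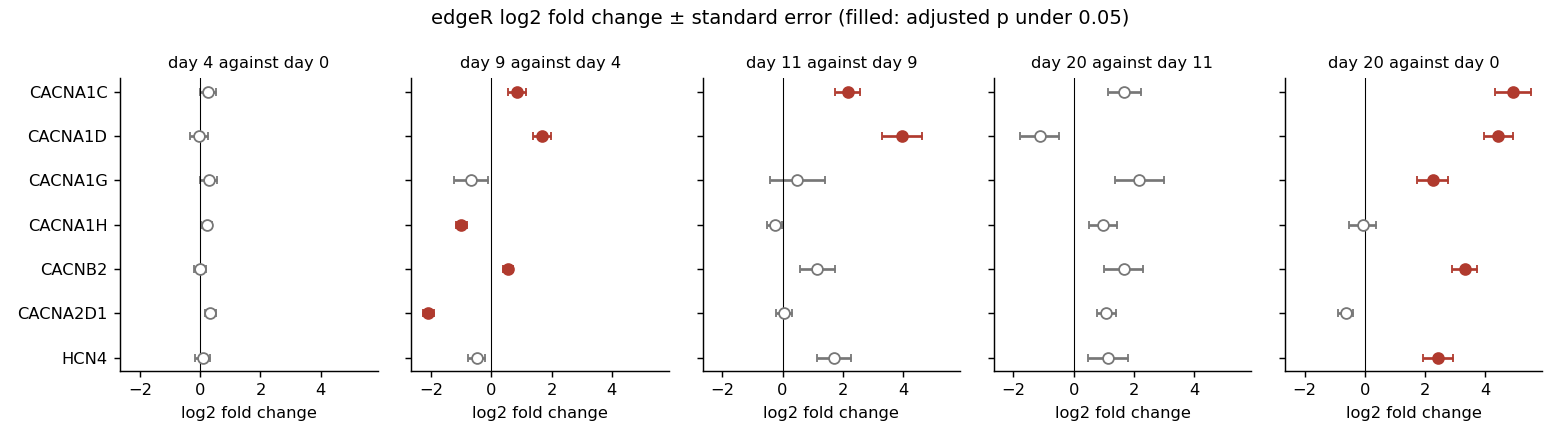
Log2 fold change in edgeR for each gene in the 5 comparisons, with the SE as a bar. Filled points have an adjusted p-value under 0.05, which holds for 0, 5, 2, 0 and 5 of the 7 genes from left to right.

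In the wider families, the calls from day 0 to day 20 depended on day 20 replicate 2, the library with reads on silent genes. With it, none of the 6 other pore genes was higher and CACNA1B was lower (log2 fold change −2.65, SE 0.65). None of the 11 tested auxiliary subunit genes was higher and CACNG7 was lower (−4.41, 0.82). HCN2 and HCN3 did not pass in edgeR, and 0 of them had an unadjusted p-value under 0.05. Among sodium channel genes SCN3A (2.99, 0.79) and SCN3B (2.17, 0.68) were called higher and SCN4A (−1.97, 0.47) and SCN8A (−2.03, 0.44) lower. Without that library, an alternative chosen after the data were seen, 5 of the 6 other pore genes were called lower in edgeR, 6 of the 11 tested auxiliary subunit genes and 5 of the 12 sodium channel genes, where 20.7% of all 23258 genes tested were higher and 17.9% lower. CACNA1E then had a log2 fold change of −3.36 (SE 0.77, adjusted p = 0.0137 in edgeR), CACNG5 of −4.54 (0.91) and SCN9A of −4.27 (0.62). CACNA1E stood at 3.15, 1.12 and 2.87 TPM on day 0 and at 0.0997, 5.57 and 0.417 TPM on day 20, so that replicate 2 alone was above day 0. SCN3A was the only sodium channel gene still called higher (2.06, SE 0.56). Day 20 replicate 2 had the highest count of SCN3A and SCN3B on that day, 125 and 313 reads against 21 and 42 and against 52 and 111 reads in replicates 1 and 3, and the part of its reads on silent genes in these calls was not tested.

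Partners of the channels were called on the same days. Among the 15 tested regulators 3 rose and 1 fell, with a median log2 fold change of 0.68. Over all genes tested 16.1% were called higher and 11.3% lower, so these counts are not far from that share. RRAD rose by a log2 fold change of 8.14 (SE 1.25), from at most 0.506 TPM to 169, 18.8 and 53.2 TPM on day 20, and AHNAK (3.64, 0.81) rose, while STAC2 fell (−1.63, 0.43). Of the 7 genes of calcium release and reuptake 6 rose, with a median of 6.40 against 2.43 for the 7 channel genes and 0.106 over all genes, among them PLN, the inhibitor of the reuptake pump (10.16, 0.77), SLC8A1 (6.42, 0.63) and the junctional protein JPH2 (6.40, 0.52). CASQ2, which binds calcium in the store, was listed at 0 in every day 0 library and held 25, 116 and 10 reads on day 20. The release channel RYR2 and TRDN were the others, and the pump ATP2A2 did not pass (1.34, 0.51). The sinoatrial factors TBX3 (6.10, 0.51), ISL1 (4.20, 0.64) and TBX18, which had at most 1 read per library on day 0, were called higher than on day 0, although ISL1 fell from day 11 to day 20 (−1.71, SE 0.31, adjusted p = 0.0425 in edgeR). ISL1 was the only gene of these lists past the threshold from day 11 to day 20.

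The makeup of each channel family was read from shares of summed TPM within a library, which do not depend on the scale of the library. CACNA1C made up 16.9, 24.4 and 14.9% of the 4 L-type pore genes (CACNA1C, CACNA1D, CACNA1F and CACNA1S) on day 0 and 16.8, 19.4 and 14.7% on day 4. Its share was 25.2, 48.3 and 27.6% on day 9, 21.9, 18.0 and 39.2% on day 11 and 59.4, 63.3 and 60.3% on day 20. Every day 20 replicate was above every replicate of the other days. The difference between days 20 and 11 was 34.6 percentage points (p = 0.1 in an exact permutation test, two-sided, which is the lowest that 3 against 3 allow, and 0.25 after Benjamini-Hochberg adjustment over 25 such tests), so no share could pass a threshold of 0.05.

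CACNA1D over CACNA1C, a ratio of TPM, was 3.42, 4.39 and 1.5 on day 11 and 0.601, 0.421 and 0.573 on day 20. It was 1.45, 0.792 and 0.954 on day 9. The order of the L-type pores therefore differed between days 11 and 20 in every replicate, with CACNA1D above CACNA1C on day 11 and below it on day 20. This ratio was chosen after its values were seen and carries no test.

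The T-type pores CACNA1G and CACNA1H made up at least 97.9% of the TPM of the 4 pore genes on days 0 and 4. Their share was 93.0, 85.5 and 95.8% on day 9 and 59.6, 46.7 and 61.7% on day 11, with no overlap. On day 20 it was 81.1, 55.8 and 83.2%, which overlapped with day 11 through replicate 2 (exact two-sided permutation test, p = 0.3). CACNA1H alone stood at 110.1, 39.1 and 75.9 TPM there.

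Among the beta subunits, CACNB2 held a mean of 16.7 ± 3.03% (SD, n = 3) of the TPM on day 0, 15.2 ± 1.78% on day 9, 28.9 ± 18.2% on day 11 and 55.4 ± 18.3% on day 20. The day 20 replicates, at 60.5, 70.6 and 35.1%, were all above those of day 0 and overlapped with those of day 11. CACNB3 and CACNB1 were the other main beta subunit genes, at 17.7, 11.8 and 27.2 TPM and at 14.6, 10.2 and 6.84 TPM on day 20. CACNA2D1 held 48.7 ± 13.5% of its family on day 0 and 63.3 ± 12.4% on day 20 (SD, n = 3), and these days overlapped. The other main member of that family, CACNA2D2, fell by 1.82 (log2 fold change, SE 0.38) from day 4 to day 9, over the same days as CACNA2D1.

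HCN4 made up 43.5, 43.4 and 45.0% of the HCN family on day 0 and 41.2, 42.0 and 44.7% on day 4. The share was 48.7, 51.9 and 52.2% on day 9, 67.4, 81.9 and 56.7% on day 11 and 83.8, 79.8 and 66.0% on day 20. Days 4, 9 and 11 did not overlap in this order (exact two-sided permutation test, p = 0.1 for each step), and days 11 and 20 did.

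**Figure D4:**
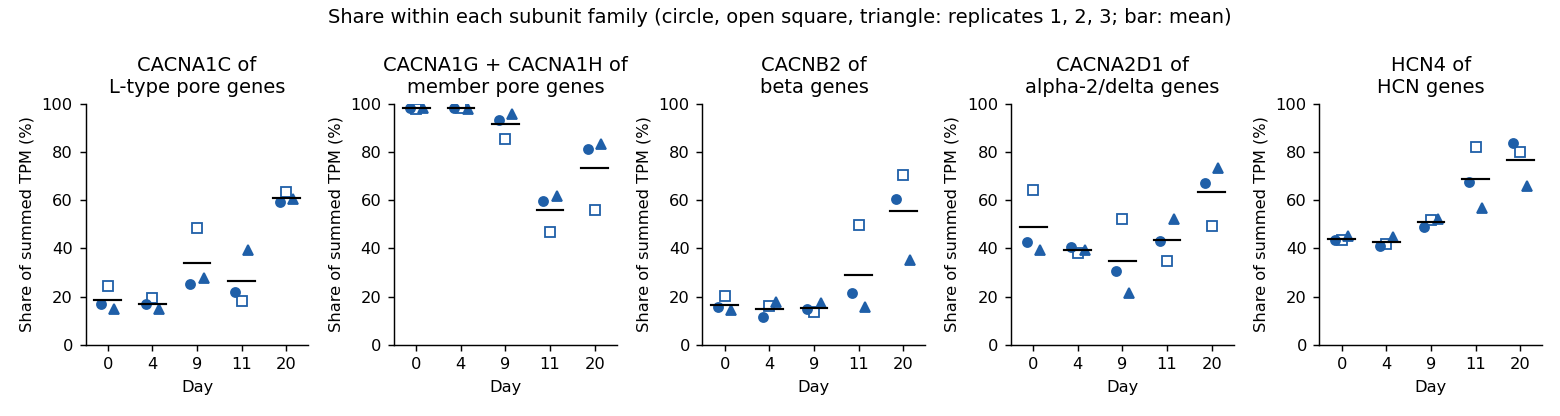
Share of summed TPM (%) within each family by day, with replicates as circle, open square and triangle and the mean as a bar. CACNA1C passes 59% of the L-type pore genes in every day 20 replicate, and HCN4 rises from about 44% to between 66.0 and 83.8% of the HCN genes.

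Because the cardiomyocyte markers varied between replicates, the 7 genes were also expressed per 1000 TPM of the 8 markers, a measure chosen after the values were seen and given with no test. HCN4 stood at 3.95, 3.64 and 3.15 per 1000 on day 11 and at 4.79, 7.07 and 5.78 on day 20. CACNA1G stood at 1.10, 1.13 and 0.434 on day 11 and at 3.13, 3.47 and 3.38 on day 20, and CACNB2 at 1.11, 1.06 and 0.748 and at 2.03, 2.44 and 3.08. These 3 genes were higher on day 20 with no overlap, and CACNA1D was lower, at 3.41, 2.82 and 1.94 on day 11 and 0.666, 1.17 and 1.16 on day 20. CACNA1C, CACNA1H and CACNA2D1 overlapped between the days.

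The 2 most abundant markers, MYH6 and MYL7, weigh most in that sum. Without them CACNA1G went from between 1.07 and 5.56 to between 10.4 and 13.1 per 1000 and CACNB2 from between 1.84 and 5.25 to between 8.19 and 9.47, again with no overlap, and CACNA1D from between 4.77 and 13.9 to between 2.80 and 3.93. CACNA1C then did not overlap either (3.17 to 3.36 on day 11 and 4.65 to 9.34 on day 20), whereas HCN4 did (7.76 to 17.9 and 17.8 to 23.7). The result for HCN4 and CACNA1C thus depends on which markers are summed.

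**Figure D5:**
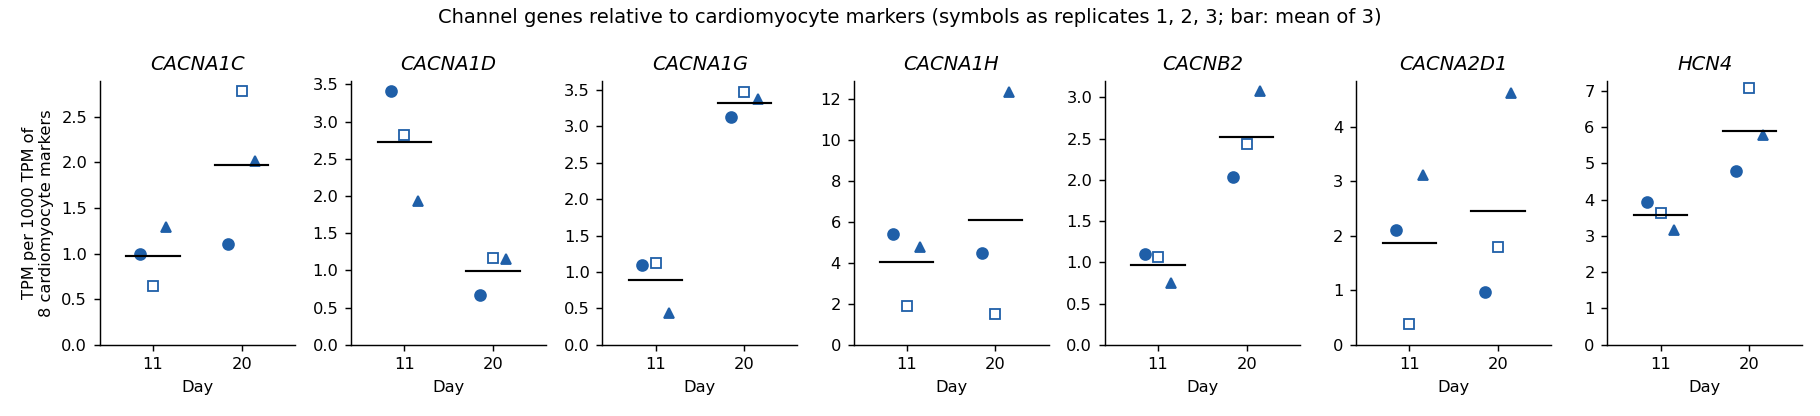
TPM of each gene per 1000 TPM of the 8 cardiomyocyte markers on days 11 and 20 (each panel with its own axis from 0), with replicates as circle, square and triangle and the mean as a bar. CACNA1G, CACNB2 and HCN4 are higher and CACNA1D is lower in every day 20 replicate.

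For each gene the protein-coding genes of most similar course were sought over the 15 libraries. The measure was Pearson's r of log2 CPM, counts scaled by the library size after TMM normalisation. Candidates were 14791 genes with a mean of at least 1 CPM. The libraries share their days and depth, so r is a description only. CACNA1C was closest to CTNNA3, an alpha-catenin of the heart (r = 0.985), and next to SYTL3 (0.982) and LDB3, a Z-disc protein (0.982). CACNA1D was closest to MYOM2, an M-band protein (0.983), INTS6L (0.979) and CAPN3, a muscle protease (0.978). HCN4 was closest to ACOT11 (0.970), PTPRE (0.951) and USP2 (0.949).

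The T-type pores had other neighbours. CACNA1G was closest to ADGRB2 (r = 0.948), SLC27A6, a fatty acid transporter (0.907), and ACACB, an acetyl-CoA carboxylase (0.903). CACNA1H was closest to ENO2 (0.944), BSPRY (0.943) and NT5DC3 (0.922). CACNB2 was closest to ADAM11 (0.987), SIRPA, a surface protein used to sort cardiomyocytes (0.968), and NFIC (0.968), and CACNA2D1 to the transcription factor BCL11A (0.969), the neurotrophin BDNF (0.966) and CST6 (0.965). No gene was among the 3 closest of more than 1 of the 7.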

How the data were processed

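Bulk RNA-seq libraries of days 0, 4, 9, 11 and 20 (3 per day) were grouped by the day in their labels (day 9, where the study's methods have day 7). The authors aligned paired-end reads from a stranded total RNA kit to GRCh38 (Ensembl 79) with STAR 2.5.2b, removed rRNA and mitochondrial genes, and deposited raw counts per gene from featureCounts 1.5.1. They also deposited TPM, scaled by gene length and to a common sum. A deposited sample table holds a score (RNA integrity number), a fraction (uniquely mapped reads) and the lane.

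Counts were tested by edgeR (version 4.0.16, R 4.3.3; filterByExpr at 10 counts and a total of 15, TMM, robust quasi-likelihood fit, two-sided) on the 6 libraries of the 2 days, with Benjamini-Hochberg adjustment over all genes. A standard error is the log2 fold change divided by the square root of F. Totals of 11990302 to 33469703 counts set the precision together with the replicate spread. Shares of TPM were compared by an exact two-sided permutation test (scipy 1.17.1, Python 3.11.15). Alternatives were DESeq2 1.42.0, upper-quartile scaling, library size alone, no filter, all 15 libraries in one fit, limma 3.58.1 on log2 of TPM plus 1 or 0.1, plate or lane as a block, and each replicate left out. All 7 genes passed the filter in every comparison. Symbols and coordinates come from GENCODE v44, promoter windows from RefSeq on GRCh38. On simulated data for days 9 and 11 with 100 genes changed 4-fold and 100 changed 8-fold among 20679, edgeR recovered 89 and 97 of them, with 11.4% false among 210 calls.

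The 7 genes and the lists beside them were chosen with earlier results of these data known. Every one of the 7 is named, and of each list up to 4 genes are, those past the threshold with the largest log2 fold change. CACNA1F, CACNA1I, CACNB1, CACNB3, CACNA2D2, SCN7A, RRAD, RYR2, TRDN, ATP2A2 and SHOX2 are in places named beyond that rule, after their values were seen. Some listed genes are not reported here.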

Additional observations from a re-analysis of the deposited data

How the results depend on the processing

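Over the single genes and comparisons, 425 alternative values kept direction and side of the threshold, 36 were no longer past it, 8 were newly past it and 21 changed sign. Of the 7 channel genes, 5 were called from day 4 to day 9, against 2 with all 15 libraries in one fit, 3 with limma on log2(TPM + 1) or log2(TPM + 0.1) and 3 to 4 with a replicate left out. From day 9 to day 11 the 2 calls became 1 with upper-quartile scaling, scaling by library size alone or limma at either pseudocount, 0 with no filter on low counts and 0 to 1 with a replicate left out. From day 11 to day 20 the count of 0 in edgeR became 1 with DESeq2 and 3 with all 15 libraries in one fit. From day 0 to day 20 the 5 calls ranged from 3 to 6 with a replicate left out. The CACNA1C share of the L-type pore genes on day 20 moved from 61.0 to 65.4% with the GENCODE exon length. The cause of these changes was not tested. Signs changed only for log2 fold changes that did not pass. From day 0 to day 4, CACNB2 became 0.0029 with upper-quartile scaling, 0.043 and 0.055 with limma at pseudocounts of 1 and 0.1, and −0.11 to 0.055 with a replicate left out. CACNA1D became 0.0046 with limma at a pseudocount of 1 and −0.29 to 0.064 with a replicate left out, where CACNA1G ranged from −0.0029 to 0.56 and HCN4 from −0.19 to 0.25. From day 9 to day 11, CACNA1G ranged from −0.73 to 1.00 and CACNA2D1 from −0.15 to 0.31 with a replicate left out. From day 0 to day 20, CACNA1H became 0.0051 and 0.0036 with limma at pseudocounts of 1 and 0.1 and ranged from −0.58 to 0.30 with a replicate left out. Over the whole table, the calls from day 9 to day 11 (288 higher, 207 lower) became 945 and 726 with DESeq2, 553 and 463 with no filter, and between 0 in total (without day 9 replicate 1) and 287 and 286 with a replicate left out. From day 11 to day 20 (239 and 93) they became 1305 and 559 with DESeq2, 2078 and 1054 with all 15 libraries in one fit, and between 0 in total (without day 11 replicate 1 or 3) and 355 and 155 with a replicate left out. All 15 libraries in one fit gave 2939 and 3270 from day 4 to day 9 (5162 and 5244 otherwise) and 6279 and 4506 from day 0 to day 20 (3536 and 2491 otherwise). With a replicate left out, day 0 to day 20 ranged from 1828 and 1300 to 4823 and 4170. Upper-quartile scaling moved the median log2 fold change of all genes from 0.066 to 0.177 for day 20 against day 11, and scaling by library size moved it from 0.106 to 0.230 for day 20 against day 0.

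Plate numbers occur on several days. After removal of the day means, r between same-plate libraries of days 9 and 11 was 0.102 (plate 2) and 0.301 (plate 6). Between days 11 and 20 it was −0.14 and 0.013 (plate 2) and 0.347 (plate 6). Plate 6 thus gave higher values than plate 2 over these steps. The labels do not say that a number marks the same culture, so the plate was used as a block only in an alternative fit. With the plate as a replicate block, a fit that compares only the 4 libraries of plates 2 and 6, HCN4 was also called from day 9 to day 11 (log2 fold change 1.03, adjusted p = 0.00099 from edgeR), which made 3 calls, CACNA1G became −0.049, and 1171 genes of the whole table were higher and 800 lower, against 288 and 207. From day 11 to day 20 the plate block, in which day 11 replicate 2 has no partner, gave 0 calls among the 7 genes and 2 higher and 1 lower over all genes, against 239 and 93. With the lane as a replicate block, CACNB2 was no longer called from day 4 to day 9. Depth limits CACNA1D most, with 26 to 61 reads per library on days 0 and 4.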
